A study of Homo sapiens with 2 samples.

Results

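CXCR4, CXCL12 and ACKR3 form a small chemokine axis: a signalling receptor, its ligand and a second receptor for the same ligand. They were followed here in Panc1, an established line of human pancreatic ductal adenocarcinoma cells. The members were chosen by symbol, taking every probe set (a group of short probes that reads 1 transcript) whose platform annotation gave exactly 1 gene symbol with that symbol being CXCR4, CXCL12 or ACKR3. This gave 8 probe sets of 54675 on the array, and 3 genes of 19775. The axis was selected on measured values, the CXCR4 difference between these arrays having been seen beforehand, so the differences of the 3 genes are descriptions and carry no test.

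The study hybridised RNA from 2 stable Panc1 populations to Affymetrix expression arrays, with 1 array per population. Panc1/mock carried the vector without an insert, and Panc1/syk-wt had received wild-type SYK, which encodes a cytoplasmic tyrosine kinase. Both were selected with hygromycin, received no further treatment and were collected before confluence. The series title calls the mock cells drug-resistant. With 1 array per population there is no replicate error for any value below, and population, RNA preparation and array cannot be told apart. Levels are RMA values, taken as log2 intensities, and a difference is always syk-wt minus mock on that log2 scale. A gene is represented by whichever of its probe sets was brightest on average, and 1 unit corresponds to 2-fold.

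CXCR4 is a G protein-coupled receptor that guides migrating cells, among them leukocytes, blood stem cells and metastasising tumour cells, up gradients of CXCL12. CXCL12 is secreted mainly by stromal cells, and in pancreatic tumours by fibroblasts. ACKR3, also called CXCR7, binds CXCL12 and CXCL11, recruits arrestins without the usual G protein signalling and removes CXCL12 from the surroundings of the cell.

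The sequences below are the 250 bases before the outermost annotated start of CXCR4, whose signal differed between the arrays, and before the start of its ligand gene CXCL12, whose signal was dim on both. They are from RefSeq (GRCh38.p14), minus strand, at chr2:136118150-136118399 for CXCR4 and chr10:44385098-44385347 for CXCL12, and run 5′ to 3′ up to the base before the start. Capitals mark exact matches, on either strand, to the NRF1 motif core CGCATGCG, the GC box GGGCGG and the TATA box TATAAAA.
CXCR4: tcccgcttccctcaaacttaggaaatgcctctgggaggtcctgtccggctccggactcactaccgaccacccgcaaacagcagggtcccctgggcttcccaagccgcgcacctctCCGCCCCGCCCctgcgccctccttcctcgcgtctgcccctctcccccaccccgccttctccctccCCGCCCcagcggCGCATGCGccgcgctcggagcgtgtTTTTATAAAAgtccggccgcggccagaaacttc
CXCL12: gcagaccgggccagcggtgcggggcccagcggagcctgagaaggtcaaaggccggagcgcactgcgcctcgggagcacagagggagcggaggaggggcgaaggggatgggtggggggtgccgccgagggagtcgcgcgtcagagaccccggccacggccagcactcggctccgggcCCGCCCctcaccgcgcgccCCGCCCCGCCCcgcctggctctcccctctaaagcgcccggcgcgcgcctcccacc
The CXCR4 window held 1 NRF1 motif core, beginning 58 bases before the start, and a TATA box in 2 overlapping places, the match on the given strand beginning 30 bases before it. The NRF1 core was present in 1.73% of 35116 annotated promoter windows of this length and the TATA box in 4.18%. Neither was found in the CXCL12 window. Each of the windows held 3 GC boxes, overlapping in part, a motif present in 42.6% of windows. The letters ACGTG, a form of the core bound by hypoxia-inducible factors and contained in the E-box CACGTG, were in neither window and in 18.5% of all windows. The other form, GCGTG, was not counted, and it occurs in the printed CXCR4 window just before the TATA box. These matches describe the letters only. No data on factor binding were analysed here.

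As a reference for dim signal, the highest value among 27 bacterial control probe sets, 4.77, was used as a floor on both arrays. It was chosen with the data known. SYK itself lay at or below the floor in each of its 4 probe sets; the brightest read 4.27 on mock and 4.73 on syk-wt. The other 3 SYK probe sets were lower on syk-wt, with differences from -0.27 to -0.07. A gain of SYK on the array labelled syk-wt was therefore not seen, and the directions below rest on the labels. The median of all probe sets was 4.26 on mock and 4.24 on syk-wt. The 3′ minus 5′ signal of the ACTB control, which tracks RNA integrity, was 1.95 on mock and 2.37 on syk-wt. That of the GAPDH control was 0.19 on mock and 0.32 on syk-wt. The part of RNA integrity in the differences below was not tested. All 7 ductal epithelial markers lay above the floor on mock, with KRT18 at 13.3 and EPCAM at 6.77. On syk-wt 6 of the 7 were lower, with a median difference of -0.76, and 3 were at least 2-fold lower: KRT19 (-1.45), MUC1 (-1.04) and CDH1, which lay below the floor there at 3.47. Of all genes past the brightness filter described below, 3.65% were at least 2-fold lower. The other KRT19 probe set, below the floor on both arrays, differed by -0.37. With probe sets averaged, KRT19 was at -0.91, MUC1 at -1.03 and CDH1 at -1.66. Since leukocytes and endothelium carry CXCR4 and fibroblasts make CXCL12, markers of these cells were read as well. Of 9 leukocyte markers 1, the B cell gene CD79A, lay above the floor (5.06 and 5.24), and the pan-leukocyte gene PTPRC read 2.88 on mock with a difference of 0.11. The 9 averaged 3.74 on mock and 3.78 on syk-wt, and ranged from 2.88 to 5.06 and from 2.85 to 5.24. All 7 endothelial markers lay at or below the floor on both arrays and averaged 3.86 and 3.87. Of 10 fibroblast and pericyte markers, COL1A1, ACTA2 and THY1 exceeded the floor on an array. COL1A1, a collagen chain, was bright and 2.13-fold lower on syk-wt by its brightest probe set (11.2 and 10.1). The 5 COL1A1 probe sets differed by -1.09 to -0.09, with a mean of -0.55. ACTA2 differed by -0.74. The remaining 7 lay at or below the floor, and the whole list averaged 4.72 on mock and 4.65 on syk-wt.

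CXCR4 signal was at background on the mock array and clearly above it on the syk-wt array in each of its 3 probe sets. Probe set 217028_at, the brightest, read 3.42 on mock and 7.97 on syk-wt. Probe set 211919_s_at read 4.25 on mock and 6.64 on syk-wt. Probe set 209201_x_at read 4.05 on mock and 6.31 on syk-wt. All mock values thus lay below the floor of 4.77 and all syk-wt values above it. The 3 probe sets read the same RNA on each array, and CXCR4 was chosen for this difference. In these bulk RNA samples, few cells with much CXCR4 RNA and many cells with little cannot be told apart.

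The CXCR4 log2 difference was 4.55 by 217028_at, 2.39 by 211919_s_at and 2.26 by 209201_x_at. The 3 probe sets therefore gave 1 direction but not 1 size, and the mean difference was 3.07 with an SD of 1.29 over these probe sets, which share the same RNA and are no replicates. Because each mock value lay below the floor, the folds are lower bounds, the syk-wt signal against the floor: at least 9.19-fold higher on syk-wt by 217028_at, at least 3.68-fold by 211919_s_at and at least 2.92-fold by 209201_x_at. The suffixes _s_at and _x_at mark probe sets whose probes may match more than 1 transcript or cross-hybridise. Both of the probe sets with such suffixes had the smaller differences.

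Among 12814 genes past a brightness filter (a mean of at least 4.25, the 50th percentile of all probe sets), CXCR4 ranked 9 from the top by measured difference and 12 with values raised to the floor. It passed the filter through its syk-wt signal. At least 2-fold higher signal on syk-wt was seen in 3.61% of those genes, and in 1.72% of all probe sets. At this mean level large differences were more common: of the 1000 probe sets nearest in brightness to 217028_at, 9.3% passed 2-fold in either direction, and 99.9% had a lower difference than that CXCR4 probe set. For 211919_s_at and 209201_x_at, 99.7% and 99.3% of their neighbours in brightness had a lower difference. CXCR4 was chosen for this contrast, so these ranks place it among the other genes and are no evidence of their own.

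**Figure D1:**
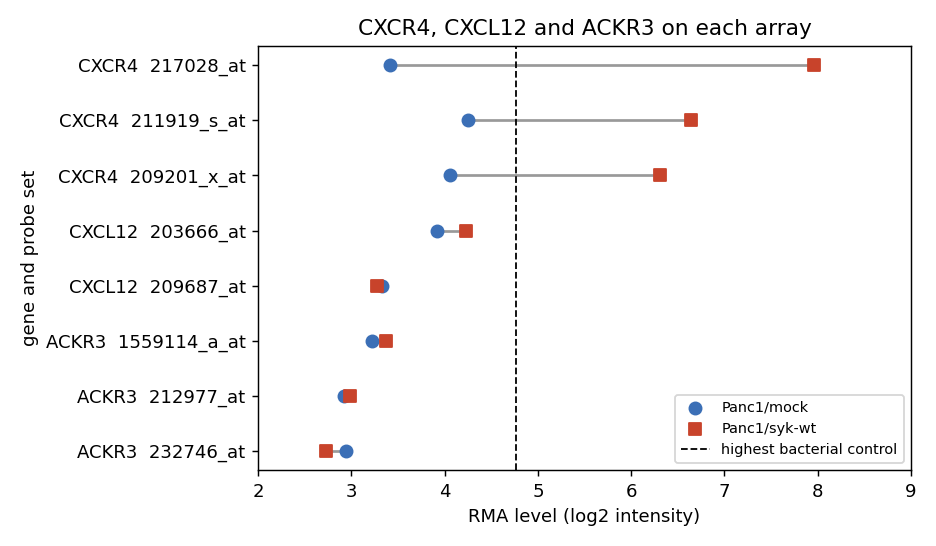
Level of each of the 8 probe sets of CXCR4, CXCL12 and ACKR3 (x axis, RMA log2 intensity; 1 circle for the Panc1/mock array and 1 square for the Panc1/syk-wt array, joined by a line; y axis, gene and probe set). The dashed line is the highest bacterial control, 4.77: only the 3 CXCR4 squares, between 6.31 and 7.97, lie to its right.

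CXCL12, the ligand, was dim on both arrays. Probe set 203666_at read 3.92 on mock and 4.23 on syk-wt, a difference of 0.30. Probe set 209687_at read 3.33 on mock and 3.28 on syk-wt, a difference of -0.05. The 2 probe sets thus disagreed in sign, and all 4 values lay below the floor, so no fold is given. Of the 1000 probe sets nearest in brightness to 203666_at, 84.8% had a lower difference, and of those nearest to 209687_at, 36.9%. CXCL12 signal above background was not detectable in either population, which does not show that the transcript was absent.

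ACKR3, the scavenging receptor, was likewise below the floor on both arrays. Probe set 1559114_a_at read 3.21 on mock and 3.37 on syk-wt, a difference of 0.16. Probe set 212977_at read 2.92 on mock and 2.98 on syk-wt, a difference of 0.06. Probe set 232746_at read 2.94 on mock and 2.73 on syk-wt, a difference of -0.21. All 6 values lay at least 1.39 below the floor, and the probe sets went both ways around 0. Taken with CXCL12, the 5 probe sets of these genes ranged in difference from -0.21 to 0.30, with 3 above 0 and 2 below. Neither gene passed the brightness filter, so 1 of the 3 genes, CXCR4, was counted among those past 2-fold.

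**Figure D2:**
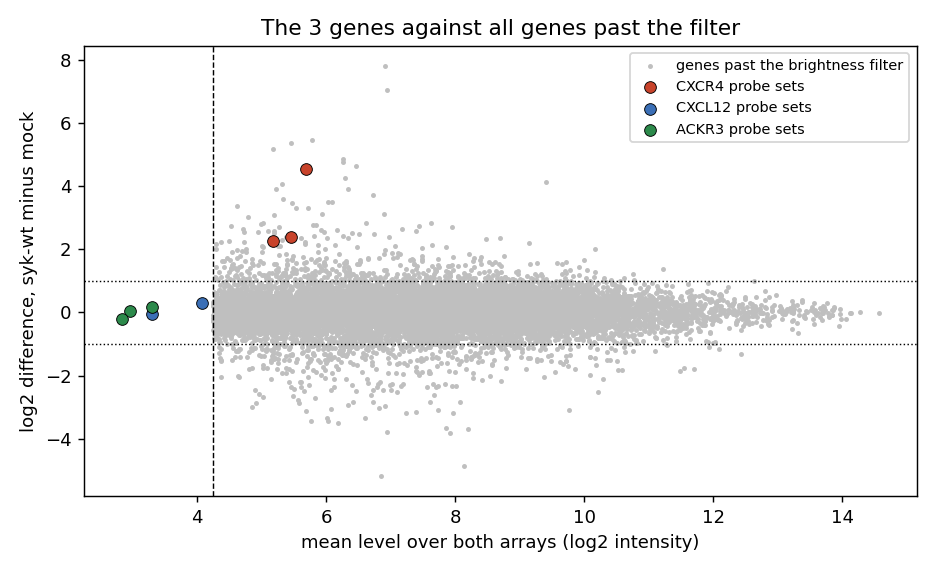
Log2 difference, syk-wt minus mock (y axis), against the mean level over both arrays (x axis, log2 intensity). Grey points are the 12814 genes past the brightness filter (dashed line, 4.25), coloured points are the 8 probe sets of CXCR4, CXCL12 and ACKR3, and dotted lines mark 2-fold. The CXCR4 probe sets sit at 2.26 to 4.55 near the upper edge of the genes of their brightness, while those of CXCL12 and ACKR3 lie left of the filter near 0.

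The genes around the axis were read from 7 lists by role. Of 94 list genes past the filter, each counted once, 8 (8.51%) passed 2-fold, 1 higher and 7 lower on syk-wt, against 7.26% of all genes past the filter in either direction, 3.61% higher and 3.65% lower. The share of list genes past 2-fold was thus near that of all genes. When the probe sets of each gene were averaged, 3 list genes remained past 2-fold, ARRB1, PREX1 and PXN, against 581 of all genes. The median difference of the 94 genes was -0.11, and that of all 12814 genes 0.01.

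Other chemokine receptors stayed dim. Of 22 listed, 20 had a named probe set, 17 of these lay at or below the floor on both arrays, and 0 of the 6 past the filter differed 2-fold, with a median difference of 0.08. CXCR1, a receptor for CXCL8, read 5.81 on mock and 5.61 on syk-wt. CCR10, a receptor of skin-homing lymphocytes, read 4.82 and 3.89. The atypical receptor CCRL2 read 4.41 and 4.80. CXCR3, which shares the ligand CXCL11 with ACKR3, read 4.22 and 4.35. Of all genes past the filter, 7.26% passed 2-fold, so 0 of 6 is near that share. Among the chemokine receptors read here only CXCR4 was past 2-fold, and it had been chosen for its difference.

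Alternative ligands and modifiers of the axis went in no common direction. Of 13 genes, 9 passed the filter, and their median difference was -0.001; 0 were at least 2-fold higher and 1 was at least 2-fold lower. MIF, a cytokine that can also bind CXCR4, was bright and near equal (12.7 on mock and 12.8 on syk-wt, a difference of 0.10). CD74, the MIF receptor that pairs with CXCR4, read 5.02 and 4.48. ADM, adrenomedullin, a peptide that ACKR3 can take up, read 11.9 and 12.3, a difference of 0.42. CXCL11, the other chemokine ligand of ACKR3, was below the floor at 2.64 and 2.74. The gelatinase MMP2, which can cleave CXCL12, was 7.18-fold lower on syk-wt, from 9.03 to 6.18. Its other 2 probe sets lay below the floor on both arrays and differed by -0.05 and 0.16. The membrane-bound MMP14, which activates MMP2, read 6.61 and 5.81, a difference of -0.80, with its 4 probe sets between -0.80 and 0.12.

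Among genes that switch off and sort the receptor, the arrestin gene ARRB1 had the largest difference. Beta-arrestin 1, its product, binds phosphorylated receptors such as CXCR4, uncouples them from G proteins and takes part in their sorting to lysosomes. ARRB1 was 6.14-fold lower on syk-wt, from 8.99 to 6.37 in 221861_at. All 7 ARRB1 probe sets were at least 2-fold lower, with differences from -3.15 to -1.08. They read between 6.33 and 9.17 on mock and between 4.61 and 6.37 on syk-wt, where only 218832_x_at lay below the floor. ARRB2 had no probe set with a single symbol and is not analysed here.

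In the same list, 17 genes passed the filter and their median difference was 0.03. Besides ARRB1, 1 gene passed 2-fold. ITCH, the ubiquitin ligase that tags CXCR4 for degradation, was 2.12-fold higher, from 7.74 to 8.82, by 209744_x_at. Of its 6 probe sets, 2 were at least 2-fold higher, and the range ran from -0.48 to 1.17. GRK3, a kinase that phosphorylates activated receptors, read 6.68 and 7.45 by its brightest probe set, a difference of 0.77. Its other 2 probe sets differed by 1.01 and 1.21. DTX3L, a partner of ITCH in receptor ubiquitination, read 8.79 and 8.03, a difference of -0.75. The related kinases GRK2, GRK5 and GRK6 differed by -0.23, -0.46 and 0.24.

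G protein subunits and their RGS regulators were mostly slightly below 0. Of 16 genes past the filter, 12 were below 0 and 0 passed 2-fold, with a median difference of -0.19. GNAI2, which encodes an inhibitory alpha subunit through which CXCR4 signals, read 9.55 on mock and 8.58 on syk-wt, a difference of -0.96. The other inhibitory alpha subunits GNAI1 and GNAI3 differed by 0.04 and 0.02. GNAQ, an alpha subunit that acts on phospholipase C, differed by -0.69, with 5 probe sets from -0.95 to 0.00. GNA12, a further alpha subunit, differed by -0.39, and RGS2, a regulator of G protein signalling, by 0.51.

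Of the genes downstream of the receptor, 23 passed the filter, 4 of them at least 2-fold lower on syk-wt, against 3.65% of all genes past the filter. With probe sets averaged, STAT3 (-0.86) and VAV2 (-0.47) were under 2-fold, while PREX1 (-1.44) and PXN (-1.04) stayed past it. None of the 23 was 2-fold higher, and their median difference was -0.27. PREX1 encodes a Rac exchange factor activated by G protein beta-gamma subunits and PI3-kinase lipids. By 224925_at it was at least 3.83-fold lower, reading 6.70 on mock and 4.29 on syk-wt. Its other probe set read 5.49 and 5.03, above the floor on both arrays, a difference of -0.46. STAT3, a transcription factor activated by cytokine receptors, was 2.33-fold lower, from 11.4 to 10.1, with 4 probe sets from -1.22 to -0.17. VAV2, another guanine nucleotide exchange factor, was 2.12-fold lower, with differences of -0.29 and -0.02 in its other probe sets. PXN, the focal adhesion adaptor paxillin, was 2.02-fold lower, with differences of -1.01 and -1.07. Median centring of the arrays took PXN to just under 2-fold. The adaptors CRKL (0.85) and BCAR1 (0.67) had the highest differences among those past the filter.

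**Figure D3:**
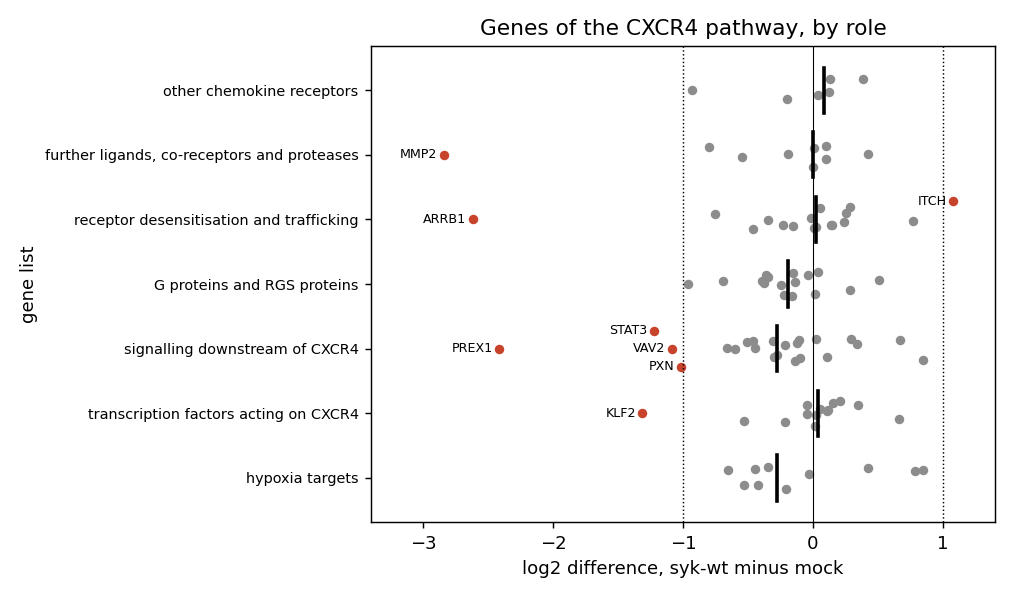
Log2 difference, syk-wt minus mock (x axis), of each gene past the brightness filter in 7 lists by role (y axis; vertical scatter within a list has no meaning). Black bars are list medians, between -0.28 and 0.08. Dotted lines mark 2-fold, and the 8 named genes in red lie beyond them, MMP2 (-2.84), ARRB1 (-2.62) and PREX1 (-2.42) farthest.

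Transcription factors described as acting on CXCR4 were mostly near 0. Of 14 past the filter, 1 passed 2-fold, lower, and the median difference was 0.04. NRF1, an activator whose motif is printed above, read 6.05 on mock and 6.17 on syk-wt, with 5 probe sets between -0.08 and 0.50. HIF1A, the hypoxia-inducible subunit, was bright and near equal at 11.2 and 11.1. Its relative EPAS1 read 9.36 on mock, with a difference of 0.67, while its other 2 probe sets lay below the floor. YY1, a repressor of CXCR4, differed by 0.35, with 6 probe sets from -0.14 to 0.72. ARNT, the partner of both hypoxia-inducible subunits, differed by -0.53. KLF2, a Kruppel-like factor, was 2.48-fold lower, reading 6.12 and 4.81, close to the floor on syk-wt, and its other probe set differed by -0.28 below the floor.

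Transcripts that hypoxia is known to raise were more often below 0 than above it. Of 10 past the filter, 3 were above 0 and 7 below, and 0 passed 2-fold. Their median difference was -0.28, and that of all genes past the filter 0.01. A change in the hypoxia response was not tested. The glucose transporter SLC2A1 differed by 0.85 and ANKRD37 by 0.79. The glycolytic enzyme PGK1 differed by -0.65 and the mitophagy receptor BNIP3 by -0.53.

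The position of the genes was used in no choice of members, so their chromosomal neighbours were read next, in the order of genes in GRCh38.p14. Around CXCR4 on chromosome 2, 5 genes with a probe set on each side were taken. None of these 10 was at least 2-fold higher, 1 was at least 2-fold lower, and their differences ran from -1.10 to 0.15. The 6 neighbours past the filter were all below 0, and the median difference of all genes past the filter was 0.01. A shift of the region was not tested. The replication licensing gene MCM6, next to CXCR4, read 10.3 on mock and 10.2 on syk-wt. UBBP1, on the other side, differed by -0.59, but it is a ubiquitin pseudogene and its probe set may read related genes. R3HDM1, UBXN4 and SPOPL differed by -0.66, -0.50 and -0.46, and HNMT, a histamine methyltransferase, was 2.15-fold lower, from 6.94 to 5.83. The lactase gene LCT, its antisense LCT-AS1, THSD7B and LOC101928273 lay below the floor on both arrays.

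Around CXCL12 on chromosome 10, the 10 neighbours differed by -0.33 to 0.24, and 0 passed 2-fold. ZNF32 was the brightest, at 8.67 and 8.35. DEPP1, a gene induced by FOXO factors, read 7.31 and 7.05. The remaining neighbours, ZNF32-AS3, HNRNPA3P1, LINC00619, LINC00841, TMEM72-AS1, TMEM72, RASSF4 and ZNF22-AS1, read at most 5.32. Around ACKR3, also on chromosome 2, the 10 neighbours differed by -0.36 to 0.29, and 0 passed 2-fold. SH3BP4, COPS8 and MLPH were bright (10.9, 10.5 and 9.81 on mock) with differences of -0.001, 0.17 and 0.19, and AGAP1 differed by -0.06. GBX2, DRC11, COL6A3, PRLH, LOC105373942 and LOC93463 lay near or below the floor.

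**Figure D4:**
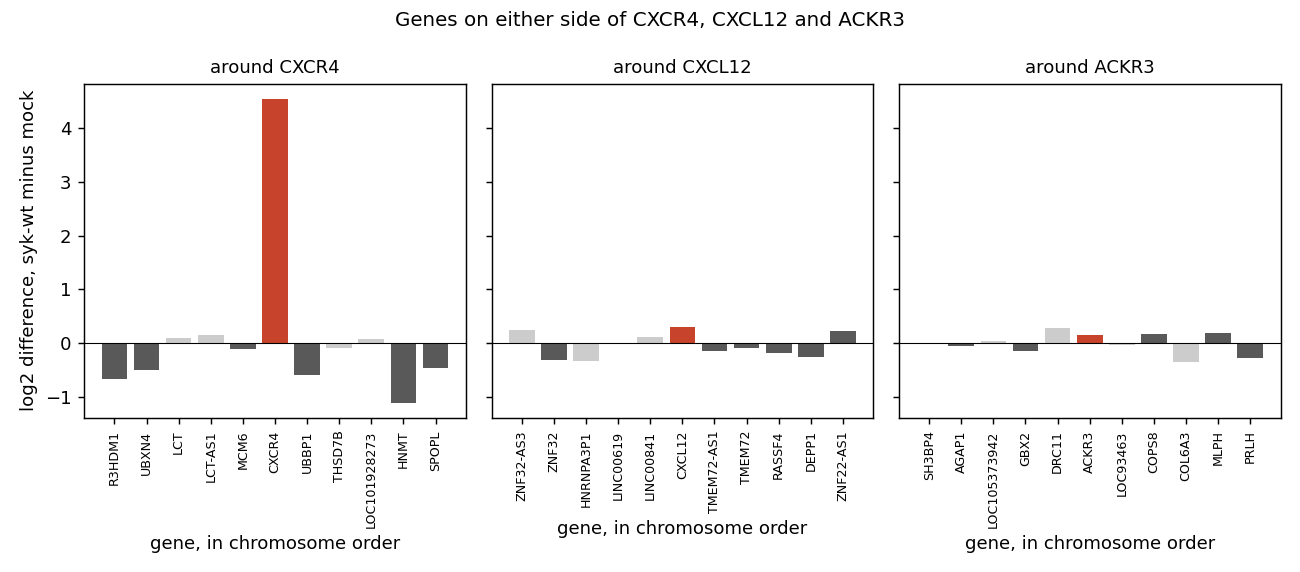
Log2 difference, syk-wt minus mock (y axis), of CXCR4, CXCL12 and ACKR3 (red) and of the 5 genes with a probe set on each side, in chromosome order with equal spacing (x axis). Dark bars are genes past the brightness filter and light bars genes below it. The CXCR4 bar, at 4.55, stands among neighbours between -1.10 and 0.15.

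Genes with the most similar pair of levels were found by Euclidean distance over the 2 arrays, among genes past the filter. For CXCR4 these were the RNA-binding protein gene BICC1 (distance 0.62), the matricellular CCN3 (0.66), the cyclooxygenase PTGS2 (0.67), the collagenase MMP1 (0.80) and the adhesion protein FLRT3 (0.81). All of them read below 4.77 on mock and between 7.18 and 8.64 on syk-wt. For CXCL12 the nearest were GALNT17, CEBPA, TLL2, PRKXP1 and HKDC1, at distances from 0.25 to 0.26, with all values below the floor. For ACKR3 the nearest were TLL2, CEBPA, PNLIPRP1, LOC728024 and HKDC1, at 1.36 each. Since CXCL12 and ACKR3 lie below the filter and the genes compared above it, the distances for both are set by the filter. With 2 arrays, such likeness says only that signals were similar on each array.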

How the data were processed

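Labelled RNA from 2 Panc1 populations, 1 array each, was measured. The authors deposited 1 log2 value per probe set and array. The submitters' processing notes name RMA (background subtraction, quantile alignment of the arrays and summary over probes). Its version and settings are not given in the sources used here. The log2 scale was inferred from the deposited range, 2.14 to 14.6. Differences between dim probe sets are compressed by RMA, which makes their folds less certain.

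Probe sets were named from the platform annotation: 41097 had 1 symbol, 1801 had several and 11777 none in the table used. Of those with 1 symbol, 41043 matched a current RefSeq gene ID.

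Differences, counts and medians were computed with pandas 2.3.3 under Python 3.11.15. Only the 2-fold calls were tested on simulated data, in which all probe sets of a gene were given the same shift. No p-value is given, since no group is replicated; the number of arrays limits the precision. The members, lists and floor were chosen with earlier results of these data known. Named are all member probe sets, up to 4 genes per list with the largest absolute difference past the filter and others a sentence turns on, the 5 nearest genes in level and the 5 neighbours on each side. GRK2, GRK5, GRK6, GNAI1, GNAI3, CRKL and BCAR1 were added after their values were seen. Promoter windows came from RefSeq, which gave CXCR4 3 starts and CXCL12 1.

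Alternatives were median centring, a loess trend on brightness (span 0.2, statsmodels 0.14.6), averaging a gene's probe sets or taking their median, the floor, 32 added on the linear scale, no filter and a filter at the 75th percentile.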

Additional observations from a re-analysis of the deposited data

How the results depend on the processing

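The CXCR4 difference of 4.55 stayed past 2-fold in the same direction under each of the 6 alternatives run. Averaging its probe sets gave 3.07, their median 2.39, the floor 3.20 and 32 added on the linear scale 2.72; median centring and loess gave 4.57 each. For CXCL12 and ACKR3 the difference lay between 0 and 0.32 and between 0 and 0.18 under the same alternatives. The 930 genes past 2-fold became 581 when probe sets were averaged and 486 under a 75th percentile filter, where fewer genes are read. The 8 list genes past 2-fold became 3 when probe sets were averaged: ARRB1 (-2.14), PREX1 (-1.44) and PXN (-1.04); MMP2 was then at -0.91, and at -0.05 by the median of its probe sets. No gene of the list of other chemokine receptors passed the filter at the 75th percentile, a mean of 6.59, so that list has no median there. CXCR4 itself, with a mean of 5.69, lay below that filter too. Median centring moved the median of all differences by 0.02. No paired analysis was possible because each population had 1 array. Values at or below 4.77 have no order, and 1 array per population leaves every difference without a replicate check.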

Other observations

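CXCL12 was compared with the other chemokine ligands on the array, a set taken by symbol after the values were seen. Of 38 ligand genes, 31, CXCL12 among them, lay at or below the floor of 4.77 on both arrays, 6 lay above it on both, and 1 on the syk-wt array alone. CCL2, which attracts monocytes, was the brightest of those past 2-fold and read 10.5 on mock and 11.9 on syk-wt, 2.62-fold higher. CCL5, an interferon- and NF-kappaB-regulated ligand, read 8.33 and 5.30 in the brightest of its 3 probe sets, 8.16-fold lower on syk-wt. CXCL8, a ligand of CXCR1 and CXCR2, read 3.88 and 5.31 in the brighter of its 2 probe sets, at least 1.45-fold higher. The other probe sets of CCL5 and CXCL8 are not given here. CXCL1, CX3CL1, CCL28 and CCL22 were above the floor on both arrays and differed by -0.63, -0.78, -0.58 and -0.31.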
